A study of Mus musculus with 3 samples.

Results

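Small leucine-rich proteoglycans (SLRPs) are secreted matrix proteins, and their messages were followed here through the cells of the mouse diaphragm. The 10 members, taken by gene symbol from the 32285 genes of the count tables, were *Dcn*, *Bgn*, *Lum*, *Fmod*, *Omd*, *Aspn*, *Prelp*, *Ogn*, *Podn* and *Ecm2*. Mononuclear cells of the costal diaphragm of male mice were released with collagenase II, sorted to exclude dead cells and captured with the 10x Genomics 3′ chemistry, which counts each captured mRNA as 1 unique molecular identifier (UMI). The WT CD library came from C57BL/6J mice on a control diet (CD), and the WT HFD library from C57BL/6J mice on a high-fat diet (HFD) with 45% of its calories from lipid. The KO HFD library came from mice of the strain B6.129S2-*Thbs1*tm1Hyn/J on the same HFD. This allele is a whole-body knockout of thrombospondin 1, so the deletion was not confined to 1 cell type. Diets began at 2 months of age and ran for 6 months, and each library pooled the cells of 2 mice. The central tendon and the rib attachments had been cut away, which limits what the libraries hold of tendon. With 1 library per group, no difference between groups has a replicate check and no test or p-value is given.

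The proteins of this family share a core of leucine-rich repeats that curves around a binding face, and most carry chondroitin, dermatan or keratan sulfate chains. Decorin, biglycan, asporin, lumican and fibromodulin bind collagen fibrils and set how thick and how evenly packed they become, and several members hold growth factors such as TGF-β in the matrix. In skeletal muscle they are made mainly by fibro-adipogenic progenitors (FAPs), the resident mesenchymal cells of the interstitium, and in tendon by tenocytes. Their messages show which cells express these matrix genes, and protein was not measured here.

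The WT CD library held 34312860 UMIs over 4132 cell barcodes, the WT HFD library 31967976 over 3774 and the KO HFD library 36478779 over 4369. Of these barcode sequences, 14, 9 and 9 also occurred in another library. Cells were clustered without the family's own genes, and 6647 of the 12275 cells fell in clusters with the markers of FAPs, called FAP-like below. They numbered 2246, 1991 and 2410 in the same order, or 54.4, 52.8 and 55.2% of the libraries. Levels are in CPM, the UMIs of a gene summed over the cells of a class and divided by all UMIs of those cells, on a scale where 10000 CPM is 1% of the UMIs. The chemistry reads 1 end of each mRNA, so CPM was not divided by gene length. Intervals are 95% Poisson intervals and cover counting error only.

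The name FAP-like came from 4 markers, whose levels are therefore fixed by the naming. *Pdgfra* stood at 415 CPM, *Clec3b* at 1592 CPM, *Pdgfrb* at 112 CPM and *Osr1* at 100.1 CPM in these cells. The tendon factor *Scx*, also among the marker sets, stood at 0.302 CPM, although *Thbs4*, which tenocytes also express, stood at 849 CPM. The targeted gene had UMIs in every library. *Thbs1* in FAP-like cells stood at 192.6 CPM in the WT CD library, 232.2 CPM in the WT HFD library and 229.5 CPM in the library labelled KO HFD. Other classes went either way between WT HFD and KO HFD. *Thbs1* was lower in KO HFD in macrophage-like cells (349.6 CPM in WT HFD and 73.8 CPM in KO HFD). The share of macrophage-like cells with a UMI was 22.4% in WT HFD and 23.6% in KO HFD, so it did not follow the CPM. Neutrophil-like (3740.5 and 1415 CPM) and tenocyte-like cells (924 and 411 CPM) were also lower in KO HFD. Monocyte-like (370.3 and 471 CPM) and mural-like cells (247 and 379 CPM) were higher. At lower levels *Thbs1* was also higher in KO HFD in dendritic-like cells (2.17 CPM, from 1 UMI, and 59.3 CPM). So it was in B cell-like cells (1.37 CPM, from 2 UMIs, and 22.5 CPM). The same held for MuSC-like (7.98 and 29.1 CPM), endothelial-like (10.6 and 38.9 CPM) and myofiber-like cells (13.5 and 61.2 CPM). It also held for lymphatic-like (37.7 and 66.5 CPM), mesothelial-like (41.4 and 74.3 CPM) and Schwann-like cells (0 CPM and, from 4 UMIs, 19.3 CPM). Cycling-like (68.7 and 32.8 CPM) and T or NK-like cells (24.0 and 18.3 CPM) were lower in KO HFD. In WT CD, *Thbs1* stood at 38.2 CPM in MuSC-like and 35.1 CPM in endothelial-like cells. All these *Thbs1* values are over all cells of a class, including cells that also carried FAP messages. The part of those cells was not tested. A 3′ read outside the deleted part of a gene checks nothing, and where the deletion lies is not given in the sources used here. These counts therefore do not check the genotype. It is taken from the sample record and from the study, which names the strain and refers to supplemental data on these mice.

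*Dcn*, which encodes decorin, was by far the most abundant member in FAP-like cells at 15500 CPM, with a UMI in 6643 of 6647 cells. *Bgn* (biglycan, its closest relative) followed at 1654 CPM and *Lum* (lumican, a keratan sulfate proteoglycan) at 1508 CPM. *Ogn* (osteoglycin, also called mimecan) stood at 1191 CPM. *Aspn* (asporin, which lacks a chondroitin or dermatan sulfate chain and binds TGF-β) stood at 1002 CPM. *Prelp*, which encodes an anchor between basement membranes and collagen, stood at 268 CPM and *Ecm2* at 210.3 CPM. *Podn* (podocan) stood at 163 CPM. *Omd* (osteomodulin, known from bone) at 37.3 CPM and *Fmod* (fibromodulin, known from tendon) at 25.1 CPM closed the order. Together the members supplied 2.16% of all UMIs of FAP-like cells, against 4.09% in tenocyte-like cells, 1.11% in mesothelial-like cells and 0.0634% in B cell-like cells.

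In the other named classes, except monocyte-like and erythroid-like cells, most *Dcn* UMIs were held by cells that also carried FAP messages, from 55.4% in MuSC-like to 99.0% in T or NK-like cells. Among 705 B cell-like cells, 24 had 2 or more UMIs of *Pdgfra* and *Clec3b*, and these 24 held 88.8% of the *Dcn* UMIs of the class. In dendritic-like cells 18 of 240 such cells held 98.6% of the *Dcn* UMIs, and in lymphatic-like cells 12 of 274 held 98.3%. Without them *Dcn* stood at 57.2 CPM in B cell-like, 21.3 CPM in dendritic-like and 22.5 CPM in lymphatic-like cells. In monocyte-like cells, where no such cell was found, it stood at 14.5 CPM (interval 6.61 to 27.5), an interval that holds the dendritic-like and lymphatic-like values and lies below that of B cell-like cells. A *Dcn* UMI occurred in 11.2% of B cell-like cells at a median depth of 8384 UMIs, against 99.9% of FAP-like cells at 8613 UMIs. After each cell had been thinned to 3000 UMIs, the shares were 6.03% and 99.97%. Whether the mixed cells were doublets was not tested. The members' class values that follow leave them out, except for FAP-like, tenocyte-like and mesothelial-like cells. Other values over all cells of a class are marked as such.

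**Figure D1:**
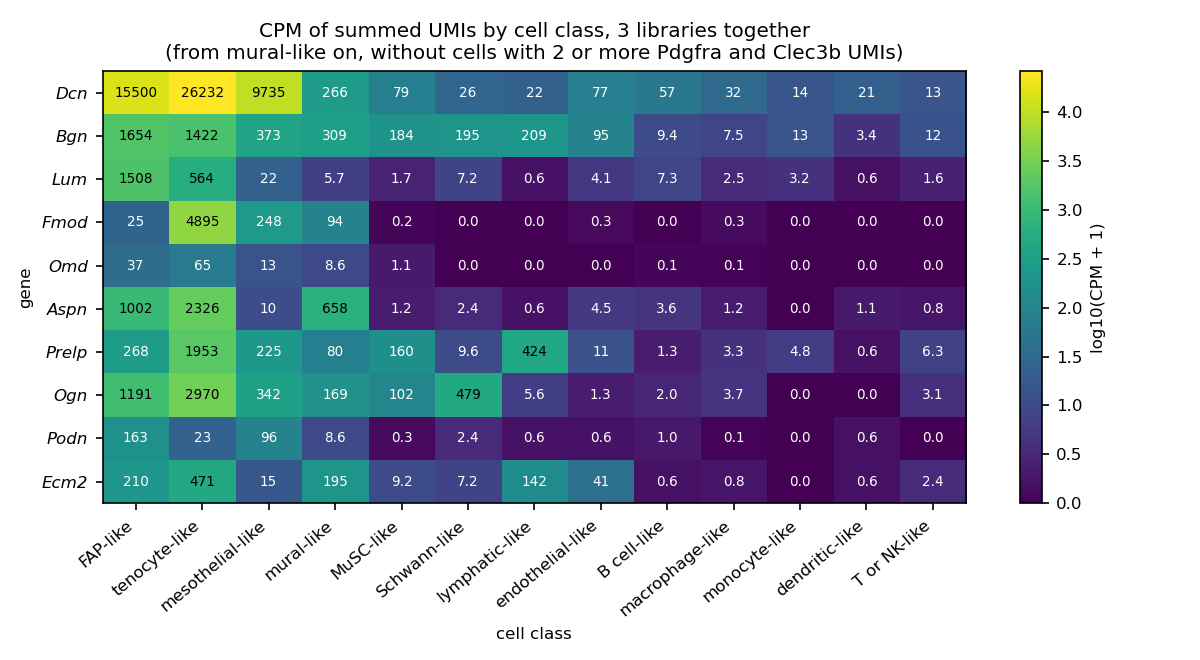
Level of each member (rows) in 13 of the 17 cell classes (columns), as CPM printed in each box and log10(CPM + 1) as colour, over the 3 libraries together. From mural-like cells rightwards, cells with 2 or more *Pdgfra* and *Clec3b* UMIs are left out. *Lum* is at 22.5 CPM or less in every column to the right of the first pair, whereas *Aspn* also stands at 658 CPM in mural-like, *Prelp* at 424 CPM in lymphatic-like and *Ogn* at 479 CPM in Schwann-like cells.

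Several classes kept a few members at a high level once the mixed cells were gone. Mural-like cells, the contractile cells around small vessels, held *Aspn* at 658 CPM (interval 576 to 749). A UMI of *Aspn* was found in 88.3% of them, against 0.294% of B cell-like cells treated in the same way. By library *Aspn* in these cells stood at 706 CPM in WT CD, 602 CPM in WT HFD and 709.8 CPM in KO HFD, so the 3 libraries lay close together. The same cells held *Ecm2* at 194.5 CPM, *Bgn* at 309 CPM and *Fmod* at 94.4 CPM, with *Lum* at only 5.72 CPM. The class is small, with 67 cells, of which 7 were mixed and left out.

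Lymphatic-like cells held *Prelp* at 424 CPM (interval 393 to 457), above its 268 CPM in FAP-like cells. *Prelp* stood at 322 CPM in WT CD, 430 CPM in WT HFD and 501 CPM in KO HFD, and a UMI occurred in 79.4% of the cells. *Bgn* stood at 209 CPM and *Ecm2* at 142 CPM in this class, whereas *Lum*, *Aspn* and *Podn* each stood at 0.625 CPM, or 1 UMI. Blood endothelial-like cells differed in level. *Prelp* was at 11.4 CPM, *Ecm2* at 41.3 CPM and *Bgn* at 95.4 CPM there.

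Cells with the markers of muscle stem cells, called MuSC-like, held *Bgn* at 184 CPM, *Prelp* at 160 CPM and *Ogn* at 102 CPM, with *Dcn* at 79.4 CPM and *Lum* at 1.71 CPM. A UMI of *Bgn* and of *Prelp* was found in 48.7% and 51.3% of these cells (1179, less 7 mixed ones). *Ogn* led in Schwann-like cells at 479 CPM (interval 414 to 550). The 10 cells with the most *Ogn* held 72.6% of its UMIs in the whole class, and 33.3% of the cells had a UMI, so a minority carried the message. In mesothelial-like cells, the lining of the diaphragm surface, *Dcn* reached 9735 CPM and *Fmod* 248 CPM while *Lum* stood at 22.5 CPM and *Aspn* at 10.2 CPM. Per 100 *Dcn* UMIs, these cells had 0.02 times the *Lum* and 15.8 times the *Fmod* of FAP-like cells.

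Tenocyte-like cells gave the members the largest share of their UMIs among the classes named here. Only 30 were found, 8, 16 and 6 by library, marked by *Scx* at 689.9 CPM, *Tnmd* at 1147 CPM and *Cilp2* at 308 CPM. *Dcn* stood at 26232 CPM, *Fmod* at 4895 CPM, *Ogn* at 2970 CPM, *Aspn* at 2326 CPM and *Prelp* at 1953 CPM. Over the libraries together, *Fmod* was thus the second most abundant member in these cells and the last in FAP-like cells. In the KO HFD library alone, *Ogn* stood above *Fmod* in tenocyte-like cells. *Lum*, at 564 CPM, and *Podn*, at 23.3 CPM or 5 UMIs, stood below their FAP-like levels of 1508 and 163 CPM.

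Most members sit beside another one in the genome. In GENCODE M21 on GRCm38, *Ecm2* (chr13:49504810-49532789), *Aspn* (chr13:49544443-49567565), *Omd* (chr13:49582462-49592822) and *Ogn* (chr13:49608046-49624501) lie in this order on the plus strand within 120 kb. *Dcn* (chr10:97479609-97518143) and *Lum* (chr10:97565128-97572703) neighbour *Kera* and *Epyc*, and *Prelp* (chr1:133910304-133921414, minus strand) lies near *Fmod* (chr1:134037254-134048277). *Bgn* is at chrX:73483602-73495933 and *Podn* at chr4:108014791-108096445 on the minus strand. All 10 are annotated as protein-coding. The 4 neighbours on chromosome 13 are shown by the 120 bases before their RefSeq starts (GRCm38.p6, plus strand), since their levels below follow different cell states despite their shared location. Capitals mark CANNTG, the core that basic helix-loop-helix factors such as scleraxis bind, which is the same on both strands.
Ecm2 (chr13:49504690-49504809): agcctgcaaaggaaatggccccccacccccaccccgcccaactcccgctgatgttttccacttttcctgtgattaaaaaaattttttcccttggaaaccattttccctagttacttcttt
Aspn (chr13:49544323-49544442): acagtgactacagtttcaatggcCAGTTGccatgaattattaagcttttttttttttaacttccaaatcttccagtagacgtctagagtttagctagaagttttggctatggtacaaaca
Omd (chr13:49582342-49582461): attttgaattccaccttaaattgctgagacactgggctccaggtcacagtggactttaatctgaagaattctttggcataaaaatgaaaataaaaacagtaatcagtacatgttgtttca
Ogn (chr13:49607895-49608014): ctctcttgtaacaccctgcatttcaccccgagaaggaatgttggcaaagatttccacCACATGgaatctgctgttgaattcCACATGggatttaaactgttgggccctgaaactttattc
The window of *Ogn* held 2 such matches, that of *Aspn* held 1, and those of *Omd* and *Ecm2* held 0. A match occurred in 40.2% of 32851 RefSeq promoter windows of this length. TATAAA, searched on both strands, occurred in 6.34% of them and in 0 of these 4. These letters describe the windows and show neither binding nor its absence.

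FAP-like cells were divided into states named by marker genes, and the members split among them. The *Sfrp2* *Tnmd* state, 650 cells, was highest for *Dcn* (25389 CPM), *Ogn* (2635 CPM), *Omd* (102.4 CPM) and *Fmod* (223 CPM). *Fmod* was the sharpest of these. In this state it stood at 166 CPM in WT CD, 293 CPM in WT HFD and 234 CPM in KO HFD, and a UMI occurred in 38.8% of cells. In the *Dpp4* *Sema3c* state, 1566 cells, 1 *Fmod* UMI was counted in all. Of the *Fmod* UMIs in the *Sfrp2* *Tnmd* state, 2.89% lay in cells that also had a UMI of *Scx*, *Kera* or *Chad*, against 99.3% in tenocyte-like cells. *Scx* was among the markers that named the tenocyte-like cells, so the naming partly fixed this contrast. A cell with 0 UMIs of *Scx*, *Kera* or *Chad* may still express them.

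*Aspn*, *Bgn*, *Prelp* and *Ecm2* were highest in the *Dio2* *Pthlh* *Col8a1* state, 438 cells. For *Ecm2* the interval there (262 to 292 CPM) included its 265 CPM in the *Gdf10* *Rbp4* *Penk* state. *Aspn* in the *Dio2* state stood at 2370 CPM in WT CD, 2595 CPM in WT HFD and 2296 CPM in KO HFD. Its lowest state was *Agt* *Ptx3* *Has1*, 275 cells, at 248.6 CPM, 359 CPM and 238 CPM in the same order. No library of one state overlapped any of the other, though both states were picked as the extremes for *Aspn*. *Bgn* stood at 3039 CPM in the *Dio2* state, followed by 2389 CPM in the *Sfrp4* *Spon2* state. *Prelp* varied least with *Ecm2*, from 206 to 407 CPM and from 146 to 277 CPM across the 7 named states.

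*Lum* and *Podn* were highest in the *Cxcl14* *Mme* state, 986 cells, at 2572 CPM and 248 CPM. The *Dpp4* *Sema3c* state held the lowest *Dcn* (10699 CPM), *Bgn* (1279 CPM), *Lum* (952 CPM), *Ogn* (866 CPM), *Podn* (109 CPM) and *Fmod*, yet the second highest *Aspn* (1288 CPM). The members made up 1.57% of all UMIs in that state and 3.41% in the *Sfrp2* *Tnmd* state. The 4 neighbours on chromosome 13 thus had different orders of states. *Aspn* and *Ecm2* were highest in the *Dio2* state, though *Ecm2* was nearly as high in the *Gdf10* *Rbp4* *Penk* state. *Omd* and *Ogn* were highest in the *Sfrp2* *Tnmd* state. Another 814 FAP-like cells stayed in clusters without a name.

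**Figure D2:**
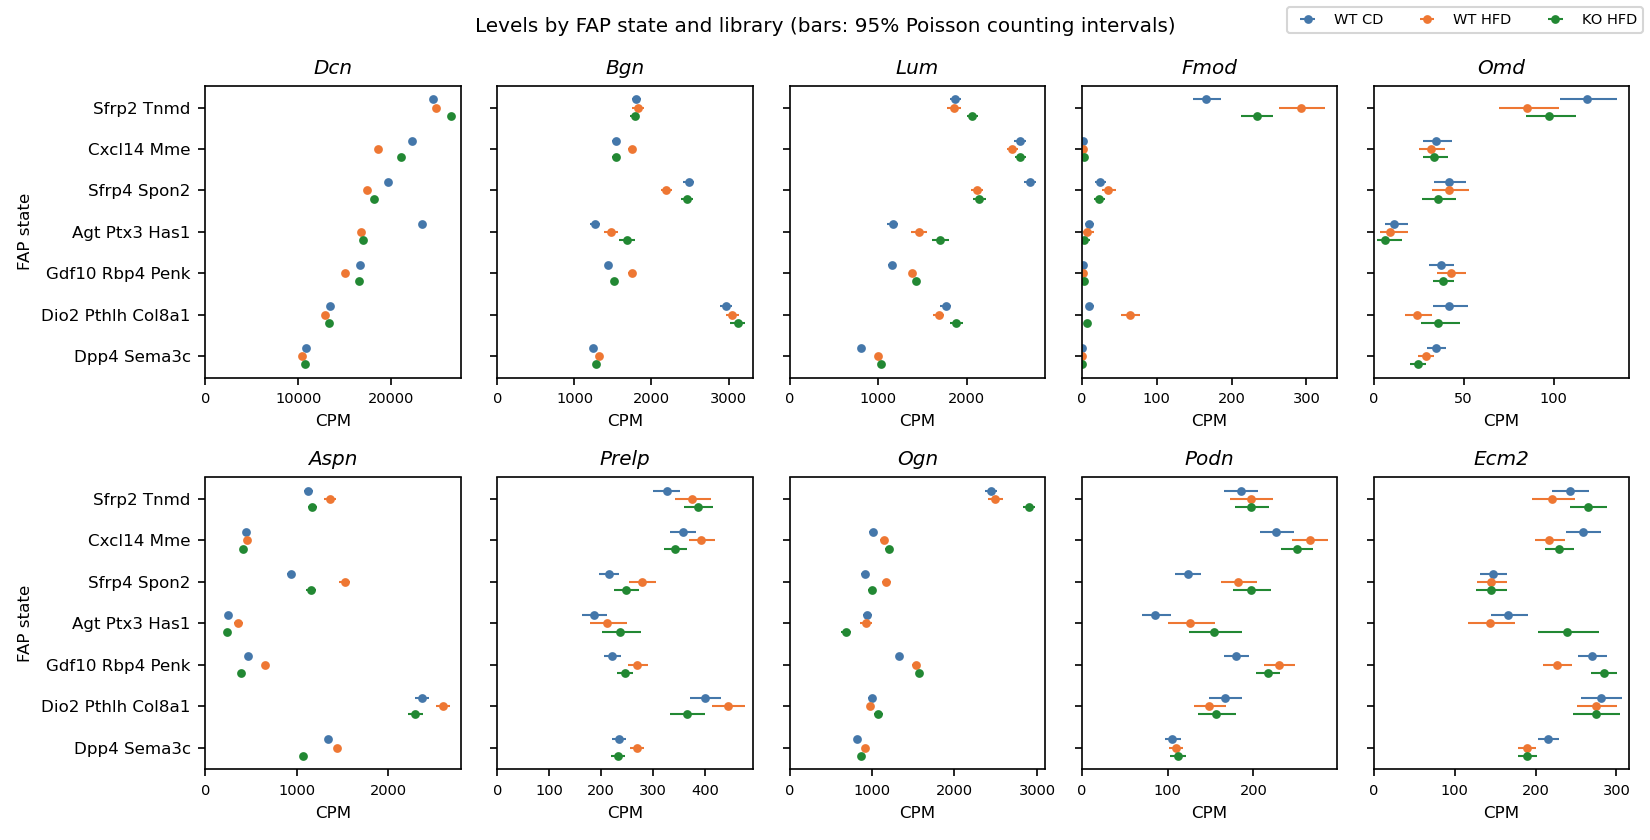
CPM of each member (horizontal axes, 1 panel per gene, each from 0) in the 7 named FAP states (vertical axis) in each library, with 95% Poisson counting intervals as bars. The 3 libraries of a state mostly lie closer together than the states do, and *Fmod* stands out in the *Sfrp2* *Tnmd* state at 166 to 293 CPM.

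Between the diets, most members in FAP-like cells differed by little. *Dcn* stood at 16417 CPM in WT CD, 14249 CPM in WT HFD and 15754 CPM in KO HFD, so the WT HFD library was the lowest. Its log2 ratio of WT HFD to WT CD was -0.20 (counting interval -0.21 to -0.20). *Bgn* stood at 1612, 1714 and 1640 CPM in the same order of libraries. *Lum* stood at 1451, 1492 and 1574 CPM. *Ogn* stood at 1153, 1171 and 1245 CPM, and for WT HFD against WT CD its interval included 0. For these 3 genes the libraries lay within a narrow band.

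*Prelp* stood at 253, 295 and 257 CPM, highest in WT HFD. *Podn* stood at 146.5, 167 and 174 CPM, lowest in WT CD. *Ecm2* stood at 218, 195 and 217 CPM, lowest in WT HFD. *Omd* and *Fmod*, the rarest members, were the ones that passed 1.2-fold between the diets. *Omd* stood at 43.0 CPM in WT CD, 33.4 CPM in WT HFD and 35.4 CPM in KO HFD, a log2 ratio of -0.36 for WT HFD against WT CD (-0.52 to -0.21). *Fmod* stood at 20.5, 29.6 and 25.4 CPM, a log2 ratio of 0.53 (0.34 to 0.72).

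Over all FAP-like cells the number of members past 1.2-fold was near the background. Of 8101 genes that reached 10 CPM in 1 or both libraries, 12.3% were 1.2-fold higher in WT HFD than in WT CD and 4.49% were 1.2-fold lower, or 16.8% in either direction, and 2 of the 10 members did so. None of the members and 1.49% of all genes passed 1.5-fold. The median log2 ratio was 0.06 over the members and 0.08 over all genes. For the library labelled KO HFD against WT HFD, 9.67% of 8087 genes passed 1.2-fold, 4.56% higher and 5.11% lower, and 1 member did, *Aspn*, which was lower. The medians were 0.07 over the members and -0.04 over all genes, and 0.853% of genes passed 1.5-fold. Both comparisons share the WT HFD library. The 3 erythroid markers, led by *Hbb-bs* at 26.9 CPM, summed to 38.4 CPM in FAP-like cells of that library, where 2 of them had UMIs, against 2.17 CPM in WT CD and 2.86 CPM in KO HFD, and their part in the ratios was not tested.

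**Figure D3:**
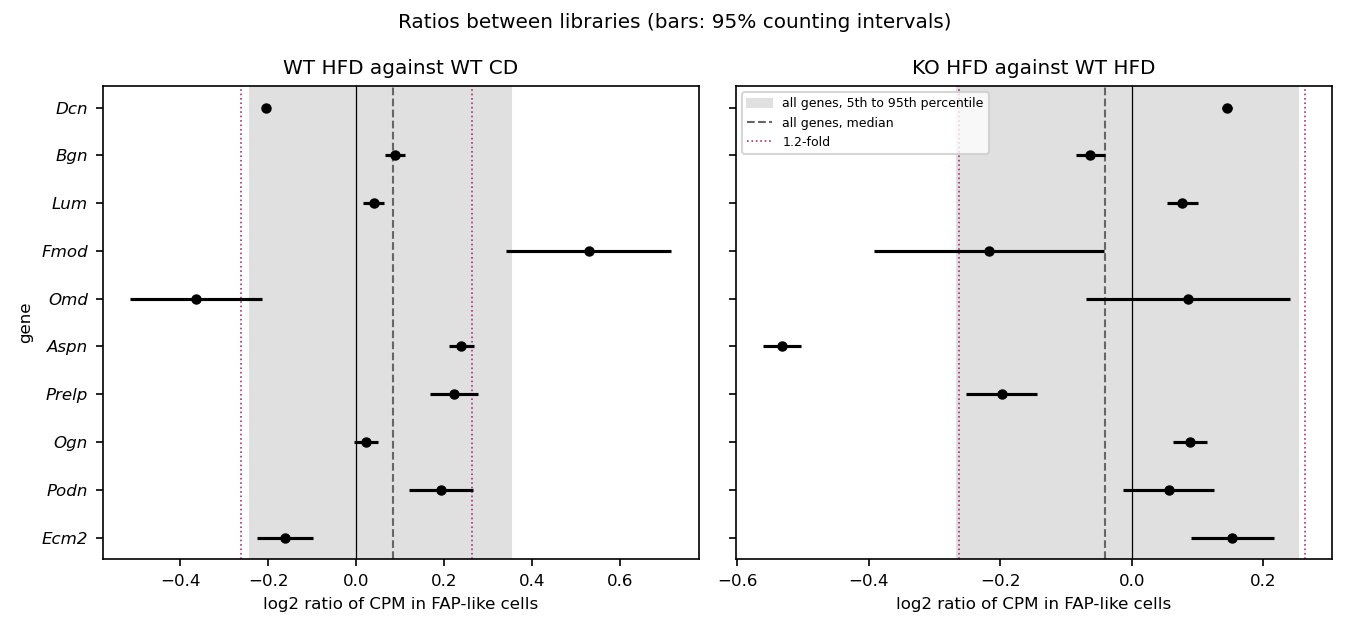
Log2 ratio of CPM in FAP-like cells (horizontal axis) for each member (vertical axis), WT HFD against WT CD on the left and KO HFD against WT HFD on the right. Points carry 95% counting intervals, the grey band spans the 5th to 95th percentile of all genes and dotted lines mark 1.2-fold. *Fmod* and *Omd* on the left and *Aspn* on the right lie outside the band.

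The *Fmod* difference rested on few cells. A *Fmod* UMI was found in 120 of 2246 FAP-like cells in WT CD (5.34%), 103 of 1991 in WT HFD (5.17%) and 151 of 2410 in KO HFD (6.27%), so the share of cells did not follow the CPM. Thinned to 3000 UMIs per cell, the shares were 3.54, 3.84 and 3.95%. The 10 cells with the most *Fmod* held 42.8% of its UMIs in WT HFD, against 27.2% in WT CD and 22.1% in KO HFD, and 1 cell alone held 74 of 554. In the *Dio2* state *Fmod* stood at 10.2 CPM in WT CD, 64.5 CPM in WT HFD and 6.88 CPM in KO HFD, where the WT HFD value came from 15 of 150 cells.

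Among the members in FAP-like cells, *Aspn* had the widest ratio of KO HFD to WT HFD with the main settings. This rank depended on the settings. With coarser clustering (Leiden resolution 0.5), for example, *Fmod* was wider, at -1.12 on the log2 scale. In FAP-like cells *Aspn* stood at 1010 CPM in WT CD, 1192 CPM in WT HFD and 825 CPM in KO HFD. The log2 ratio was 0.24 (0.21 to 0.27) for WT HFD against WT CD and -0.53 (-0.56 to -0.50) for KO HFD against WT HFD. A UMI was found in 78.0, 84.2 and 73.5% of cells, and in 66.7, 73.7 and 61.6% after thinning. In B cell-like cells, mixed cells included, the shares were 2.70% and 1.81%. The WT HFD library was highest on every one of these measures and the KO HFD library lowest.

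The sign was the same inside the states. For KO HFD against WT HFD the *Aspn* log2 ratio was below 0 in all 7 named states. It ran from -0.11 in the *Cxcl14* *Mme* state, where the interval (-0.23 to 0.01) included 0, to -0.76 in the *Gdf10* *Rbp4* *Penk* state (-0.86 to -0.67). For WT HFD against WT CD it ran from 0.00 in the *Cxcl14* *Mme* state (-0.12 to 0.13) to 0.71 in the *Sfrp4* *Spon2* state (0.63 to 0.80). In that state the levels were 932 CPM in WT CD, 1526 CPM in WT HFD and 1154 CPM in KO HFD. It joined clusters of 457 and 142 cells, and the smaller one held 64, 27 and 51 cells in the same order. The states' shares also moved between libraries. The *Dpp4* *Sema3c* state, with high *Aspn* and low *Dcn*, made up 21.5% of FAP-like cells in WT CD, 27.9% in WT HFD and 21.95% in KO HFD. The *Dio2* *Pthlh* *Col8a1* state, with the highest *Aspn*, made up 7.21%, 7.53% and 5.23%. With the states weighted alike the *Aspn* ratio of KO HFD to WT HFD was -0.40 and the *Dcn* ratio of WT HFD to WT CD was -0.14.

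*Dcn* within states was lower in WT HFD than in WT CD by between 0.06 in the *Dpp4* *Sema3c* state and 0.48 in the *Agt* *Ptx3* *Has1* state on the log2 scale, except in the *Sfrp2* *Tnmd* state, where the ratio was 0.01 (-0.01 to 0.03). In the *Agt* *Ptx3* *Has1* state *Dcn* stood at 23374 CPM in WT CD, 16761 CPM in WT HFD and 17051 CPM in KO HFD. That state held 140, 68 and 67 cells. *Lum* took opposite directions in different states, higher in WT HFD than in WT CD in the *Dpp4* *Sema3c* state (1003 CPM in WT HFD and 802 CPM in WT CD) and lower in the *Sfrp4* *Spon2* state (2115 CPM in WT HFD and 2710 CPM in WT CD), and over all FAP-like cells its log2 ratio was 0.04. Of all genes, 16.5% were 1.2-fold higher in WT HFD in the *Dpp4* *Sema3c* state, 24.3% in the *Gdf10* *Rbp4* *Penk* state and 40.4% in the *Agt* *Ptx3* *Has1* state, and 17.1% were 1.2-fold lower in the *Sfrp4* *Spon2* state. Of the members compared, 1 of 9, 5 of 9 and 3 of 9 were 1.2-fold higher in the first 3 of these states, and 1 of 10 was lower in the last. The 5 in the *Gdf10* *Rbp4* *Penk* state were *Aspn* (log2 ratio 0.49), *Podn* (0.36), *Prelp* (0.29), *Bgn* (0.28) and *Lum* (0.27).

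**Figure D4:**
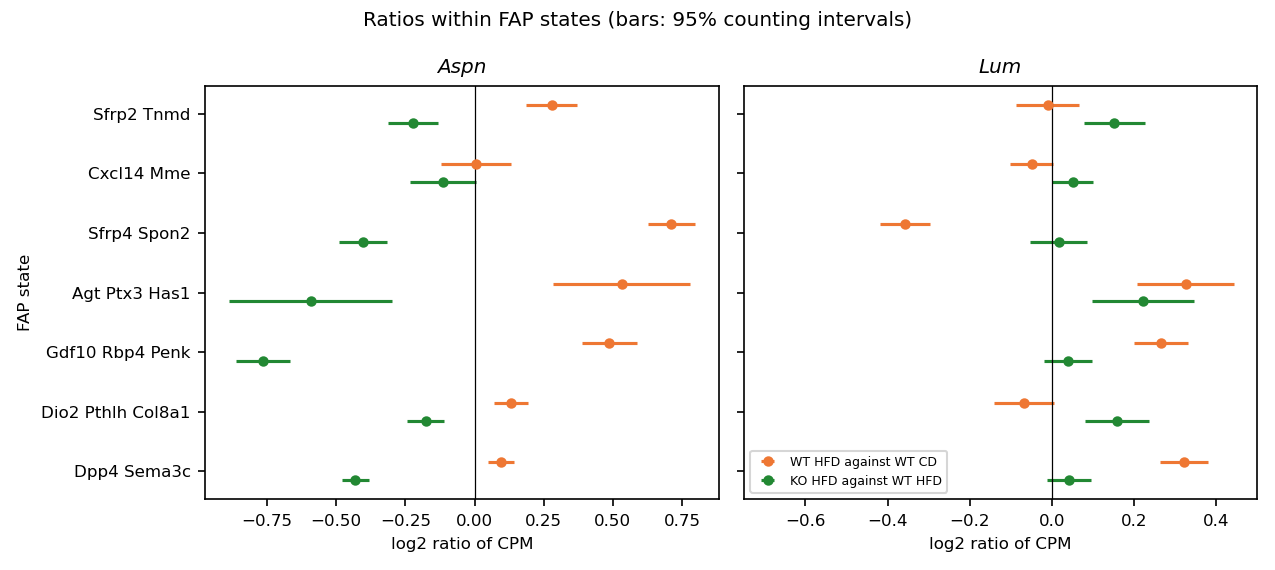
Log2 ratio of CPM (horizontal axis) of *Aspn* (left) and *Lum* (right) in each named FAP state (vertical axis), with 95% counting intervals as bars (orange, WT HFD against WT CD, and green, KO HFD against WT HFD). The KO HFD ratios of *Aspn* are all below 0, while the WT HFD ratios of *Lum* run from -0.36 to 0.33.

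MuSC-like cells had their 3 leading members at lower levels in the WT HFD library than in the WT CD library. Over all cells of the class, *Bgn* stood at 249.9 CPM in WT CD, 183 CPM in WT HFD and 172 CPM in KO HFD. *Prelp* stood at 205.0, 161 and 129 CPM and *Ogn* at 137, 105 and 88.0 CPM in the same order. WT CD was the highest for all 3, with log2 ratios of WT HFD to WT CD of -0.45, -0.35 and -0.38. In this class 14.2% of 7168 genes were 1.2-fold lower in WT HFD and 41.8% were 1.2-fold higher, and the median over all genes was 0.18. Of the 6 members compared, 5 were 1.2-fold lower and 0 higher. The levels without the mixed cells kept this order, with *Prelp* at 207, 163 and 129 CPM. For KO HFD against WT HFD the median over the 6 members compared was 0.28, beside -0.05 over all genes. The members went both ways, since *Bgn*, *Prelp* and *Ogn* were lower in KO HFD. *Dcn* stood at 109 CPM in WT HFD and 206 CPM in KO HFD, and without the mixed cells at 57.1 and 88.3 CPM.

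The tenocyte-like cells were few, and several members differed between their libraries. *Fmod* stood at 6427 CPM in WT CD, 5104 CPM in WT HFD and 1810 CPM in KO HFD. *Prelp* stood at 1990, 2218 and 1015 CPM, *Ogn* at 3205, 3200 and 1838 CPM and *Dcn* at 31978, 24788 and 22083 CPM. The KO HFD library was lowest for each of these 4. *Bgn* stood at 1250, 1443 and 1618 CPM, highest in KO HFD. Between KO HFD and WT HFD, 81.5% of 4915 genes passed 1.2-fold in this class, as did 6 of the 9 members compared, and 63.2% of genes and 5 members passed 1.5-fold. In KO HFD, *Fmod* UMIs were found in 5 of 6 cells and *Scx*, *Kera* or *Chad* beside *Fmod* in 3 of them, against all 16 in WT HFD. *Chad* stood at 2377 CPM in WT CD, 1996 CPM in WT HFD and 878 CPM in KO HFD. *Kera* stood at 986, 948 and 247 CPM in the same order, so both were also lowest in KO HFD. The part of cell identity in these differences was not tested.

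**Figure D5:**
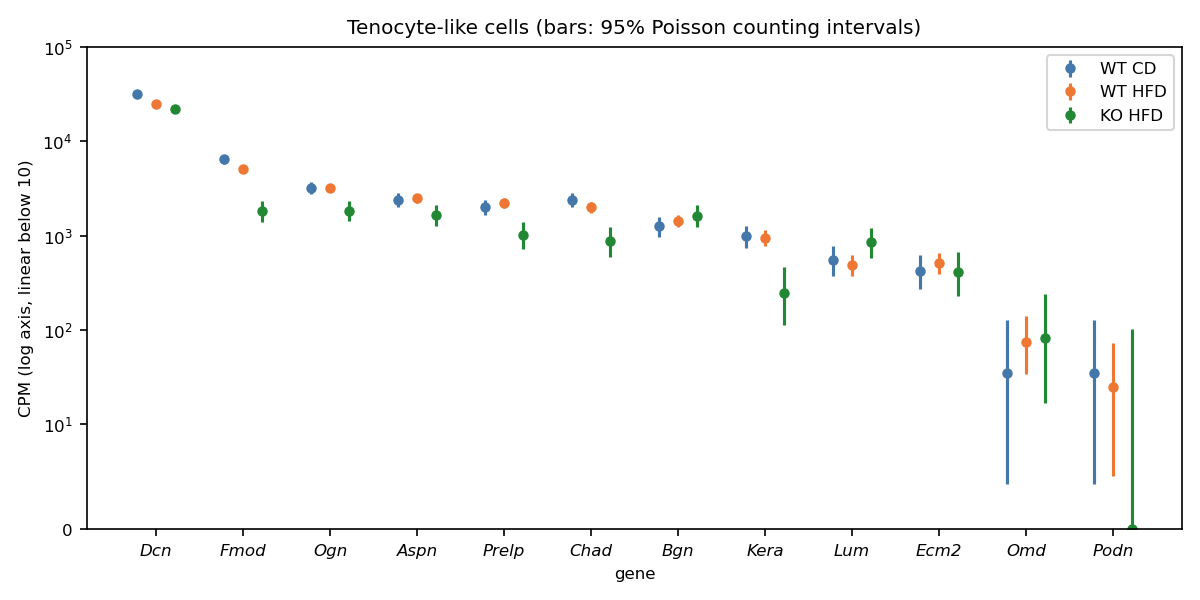
CPM (vertical axis, logarithmic above 10 and linear below) of the members and of *Chad* and *Kera* in tenocyte-like cells, by library (8 cells in WT CD, 16 in WT HFD, 6 in KO HFD), with 95% Poisson counting intervals as bars. *Fmod* differs most by library among the abundant members, from 6427 CPM in WT CD to 1810 CPM in KO HFD, while *Bgn* and *Ecm2* stay close together.

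Other leucine-rich repeat genes of the wider family were mostly rare. *Chad* (chondroadherin) and *Kera* (keratocan), named here after their values had been seen, marked the tenocyte-like cells at 1907 CPM and 839 CPM, and stood at 0.084 and 0.0504 CPM in FAP-like cells. *Tsku* (tsukushi) stood at 14.3 CPM, *Chadl* at 13.7 CPM, *Epyc* (epiphycan) at 8.06 CPM and *Optc* (opticin) at 0.42 CPM in FAP-like cells. *Epyc*, the neighbour of *Kera*, *Lum* and *Dcn*, stood at 12.6 CPM in WT CD, 9.66 CPM in WT HFD and 2.33 CPM in KO HFD, from 250, 181 and 49 UMIs in 58, 48 and 20 cells. Its log2 ratio of KO HFD to WT HFD was -2.05 (-2.54 to -1.59), but both levels lay under the 10 CPM minimum, so it was not counted in that comparison. Over the libraries together *Epyc* was highest in the state *Agt* *Ptx3* *Has1* at 36.3 CPM, followed by *Sfrp4* *Spon2* at 22.2 CPM, and had 0 UMIs in *Cxcl14* *Mme*, where 3 counts would be 0.409 CPM. In *Agt* *Ptx3* *Has1* it stood at 35.5, 64.3 and 9.06 CPM by library, from 11, 8 and 1 cells. In *Sfrp4* *Spon2* it stood at 46.4, 12.9 and 0 CPM, from 11, 2 and 0 cells, so in WT CD that state was the higher one.

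Genes that make, bind or cut these proteins were followed from lists, whose counts in FAP-like cells stand beside 12.3% of all genes higher and 4.49% lower in WT HFD than in WT CD, and 4.56% higher and 5.11% lower in KO HFD than in WT HFD. Of 12 collagens of the fibril and its surface, 11 reached 10 CPM and were compared, and 5 were 1.2-fold higher in WT HFD than in WT CD, with 0 lower and a median of 0.26. *Col3a1* stood at 2642 CPM in WT CD and 3611 CPM in WT HFD, *Col1a2* at 2171 and 2674 CPM, *Col1a1* at 953 and 1036 CPM and *Col6a1* at 774 and 924 CPM. The 5 were *Col3a1*, *Col1a2*, *Col5a2*, *Col5a3* and *Col6a3*. For KO HFD against WT HFD 1 collagen was 1.2-fold lower, *Col5a3* (258 CPM in WT HFD and 208 CPM in KO HFD), and 0 were higher. *Col3a1*, at 3011 CPM in KO HFD, did not pass. Of 26 enzymes that build the glycosaminoglycan chains, 17 were compared, 4 were higher (*Csgalnact1*, *Chpf2*, *Chst7* and *Dsel*) and 0 lower in WT HFD, and 0 passed in either direction for KO HFD. *Dsel*, an epimerase that makes dermatan sulfate, stood at 63.0, 83.9 and 73.1 CPM in WT CD, WT HFD and KO HFD. *B4galt1* at 110.2 CPM, *Chpf* at 69.0 CPM and *Csgalnact2* at 64.5 CPM were the other abundant enzymes.

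Of 18 listed ligands and receptors, 17 were in the files and 13 were compared, with 1 higher and 1 lower in each comparison. These were *Egfr* (higher) and *Kdr* (lower) in WT HFD, and *Kdr* (higher) and *Cd44* (lower) in KO HFD. *Lrp1*, an endocytic receptor for decorin, stood at 1057 CPM, *Ccn2* at 423 CPM, *Bmp4* at 136 CPM and *Egfr* at 130.4 CPM. Of 9 proteases, 6 were compared, 3 were higher (*Adamts5*, *Adamts4* and *Mmp14*) and 1 lower (*Mmp3*) in WT HFD, and 0 were higher and 2 lower (*Adamts5* and *Mmp3*) in KO HFD. *Adamts5*, an aggrecanase that also cleaves members of this family, stood at 313 CPM in WT CD, 494 CPM in WT HFD and 368 CPM in KO HFD, with a log2 ratio of 0.66 (0.61 to 0.71) for the diets. *Mmp14* stood at 83.7, 121.5 and 121 CPM. *Mmp2* at 584 CPM and *Bmp1* at 157 CPM completed the named proteases. For the diets the median log2 ratio was 0.26 over the collagens, 0.15 over the chain enzymes, 0.13 over the ligands and receptors and 0.37 over the proteases, beside 0.06 over the proteoglycans and 0.08 over all genes. For KO HFD against WT HFD these medians were -0.17, -0.11, -0.09 and -0.07, beside 0.07 and -0.04.

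The genes most alike in pattern were sought over 24 classes and states among 6784 genes that passed a minimum level, by Pearson's r of log2(CPM + 1). *Dcn* was close to *Fbln1* (r = 0.98) and *Pcolce* (0.98). *Bgn* was nearest to *Col5a2* (0.98), *Col3a1* and *Pam*, and *Lum* to *Myoc* (0.98), *Gsn* and *Ctsk*. *Aspn* was nearest to *Ctsk* (0.94), *Thbs3* and *Col8a1*, and *Fmod* to *Zfp185* (0.92), *Gm26771* and *Egfl6*. *Omd* was nearest to *Gpr153*, *Itgbl1* and *Mn1*, *Prelp* to *Zfp503*, *Colec12* and *Crtap*, *Ogn* to *Abca8a* and *Maged2*, *Podn* to *Clec3b*, *Smoc2* and *C1ra*, and *Ecm2* to *P3h3*, *Tshz2* and *Lysmd2*, with r between 0.91 and 0.97. Mixed cells were kept in this search, the classes and states share the same libraries, and FAP states are 7 of the 24 points, so these values describe shape over cell types only.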

How the data were processed

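The authors pooled the cells of 2 mice per library and made the tables with Cell Ranger 6.1.1 on mm10, per the submitters' processing notes. The deposited values are whole-number UMI counts of the barcodes called as cells, without normalization. All 12275 barcodes were kept. Counts were scaled to 10000 per cell, log-transformed and clustered (scanpy 1.11.5, leidenalg 0.10.2, Python 3.11.15) on variable genes, with the 10 members and 9 related genes left out. FAP-like cells were clustered again, also without 113 genes that differed 1.5-fold between libraries. Classes were named by marker sets and states by marker genes. Thresholds for naming were chosen after looking at the clusters. A cluster of 37 cells, 62.2% of them called doublets by Scrublet, and one of 204 cells with a median of 1810.5 UMIs and mitochondrial leading genes stayed unnamed, and other doublets were kept. Between 31967976 and 36478779 UMIs per library give narrow counting intervals for FAP-like cells and wide ones for small classes.

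CPM of summed UMIs carries exact Poisson intervals, log2 ratios exact conditional binomial intervals and shares exact Clopper-Pearson intervals, all at 95%, and shares of cells were also computed after thinning to 3000 UMIs. A gene was counted in a comparison where it reached 10 CPM in either library, and entered the search for like patterns from 50 CPM in 1 class or state. One listed ligand, *Wisp1*, had no row under that symbol. Named genes were the 10 members, *Thbs1*, the 4 highest genes in FAP-like cells of each list and the 3 genes most alike to each member (1 of these genes is not reported here), and *Chad*, *Kera* and the listed genes past 1.2-fold were added after their values were seen. The members and lists were chosen with earlier results of these data known. Scaling by edgeR 4.0.16 and DESeq2 1.42.0 in R 4.3.3, cell filters and clustering settings were varied, and the calculation was tested on simulated data. No test was made, because each group has 1 library.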

Additional observations from a re-analysis of the deposited data

Results flagged for a closer look

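*Lum* was set apart because it differed in opposite directions in separate FAP states for WT HFD against WT CD, each by over 1.2-fold and beyond counting error. Its log2 ratio was 0.32 in the *Dpp4* *Sema3c* state, 0.27 in the *Gdf10* *Rbp4* *Penk* state and 0.33 in the *Agt* *Ptx3* *Has1* state. In the *Sfrp4* *Spon2* state it was -0.36. Of all genes, 16.5, 24.3 and 40.4% were 1.2-fold higher in the first 3 states, and 17.1% were 1.2-fold lower in the last. Each *Lum* ratio lay between the 5th and 95th percentile of all genes in its state. The *Sfrp4* *Spon2* state joined clusters of 457 and 142 cells. The smaller one gave 64 of its 226 cells in WT CD and 27 of 186 in WT HFD. The part of this mix was not tested. The difference between the states was not tested either, since each group has 1 library.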

How the results depend on the processing

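No paired analysis was possible because each group has 1 library. Over 13 alternatives the median log2 ratio of the members for WT HFD against WT CD (0.06) moved beyond its counting interval to -0.0060 with TMM factors, 0.00037 with DESeq2 size factors, 0.10 with each cell weighted alike, 0.11 with the FAP states weighted alike and 0.019 against the other libraries combined. The number of members past 1.2-fold in this comparison was 2 or 3 throughout, with *Dcn* added under both size factors, *Podn* added without the *Dpp4* *Sema3c* state, and *Aspn* in place of *Omd* against the other libraries combined. For KO HFD against WT HFD the count went from 1 to 2, *Fmod* joining *Aspn*, with the FAP states weighted alike, FAPs by marker gate, clustering with the family, Leiden resolution 0.5 or 2, and without the *Dpp4* *Sema3c* state, the last an alternative chosen after seeing the data. The cause was not tested. *Aspn* kept its sign under all 13 alternatives, between -0.54 and -0.40 for KO HFD against WT HFD, as did *Dcn*, *Omd* and *Fmod* for the diets, *Fmod* between 0.34 and 0.89. *Fmod* for KO HFD against WT HFD ran from -1.12 at Leiden resolution 0.5 to 0.03 against the other libraries combined. Of the members' log2 ratios, 198 stayed within their counting intervals and 62 moved beyond them. Without a minimum CPM, 45.5% and 41% of genes passed 1.2-fold in the diet and knockout comparisons, and at 50 CPM 14.1% and 8.06% did. Leaving out cells with 2 or more *Pdgfra* and *Clec3b* UMIs was also chosen after seeing the data. Depth limits the small classes: in the tenocyte-like cells of KO HFD, 0 *Podn* UMIs were counted.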

Other observations

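*Nepn* (nephrocan), a related gene outside the members, was found mainly in endothelial-like cells, at 58.4 CPM (interval 50.6 to 67.0) with mixed cells included. A UMI occurred in 16.3% of these 884 cells. Mural-like cells, mixed cells included, held it at 29.4 CPM, from 12 UMIs in 3 cells of WT HFD. In that library it stood at 65.9 CPM in mural-like and 57.0 CPM in endothelial-like cells. *Podnl1*, the closest relative of *Podn*, stood at 24.3 CPM in T or NK-like cells, mixed cells included, from 35 UMIs. In this class *Podn* itself was at 8.33 CPM before and at 0 after the mixed cells were left out. *Tsku* was highest among the FAP states in *Dpp4* *Sema3c* at 23.1 CPM, the state in which *Dcn*, *Bgn*, *Lum*, *Ogn* and *Podn* were lowest. These genes were named after their values had been seen.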
